A study of Homo sapiens with 6 samples.

Results

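miR-128 is a conserved microRNA made from 2 hairpins, MIR128-1 and MIR128-2, and it was described here in breast cancer stem-like cells (BCSCs) after rosmarinic acid (RA), a plant phenolic acid. The rows were chosen by name, as every mature miRNA whose identifier starts with hsa-miR-128-, and the family itself was chosen on a view of these data in which hsa-miR-128-3p was higher after RA. Its difference between RA and control is therefore given as a description with no test. Of the 3 mature arms that the hairpins can give, 2 were among the 449 miRNAs of the table, hsa-miR-128-3p and hsa-miR-128-1-5p. The remaining arm, hsa-miR-128-2-5p, had no row and was not analysed here.

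The 3 RA libraries came from BCSCs exposed for 48 h to RA at 200 μg/mL, and the 3 control libraries from BCSCs kept for 48 h at 0 μg/mL RA. All 6 came from wild-type cells (labelled WT) of a single cell line, MDA-MB-231, a triple-negative human breast carcinoma line that was grown as floating spheres, and the methods name DMSO as the solvent of RA. The labels give 3 wells per group but do not say that each library came from its own culture, so the spread between libraries may be technical. Some descriptions conflict, since the sequencer is a NextSeq 500 by the labels and a HiSeq by the methods, and the labelled RNA extraction speaks of brain tissue.

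A miRNA guides the Argonaute complex to messenger RNAs, mainly through its seed, the bases just behind the 5′ end, which pair with sites in the 3′ untranslated region and lower the output of the message. miR-128-3p is abundant in neurons, where both hairpins are transcribed within host genes, and it is known to repress BMI1, a subunit of Polycomb repressive complex 1 that supports the self-renewal of stem cells. The arm that Argonaute keeps is the guide strand, here 3p, and the passenger arm, here 5p, is mostly degraded.

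The mature sequences show why the arms are read separately, with bases 2 to 8 from the 5′ end, the seed, in capitals (RefSeq, GRCh38.p14).
hsa-miR-128-3p: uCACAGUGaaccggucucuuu
hsa-miR-128-1-5p: cGGGGCCGuagcacugucugaga
hsa-miR-128-2-5p: gGGGGCCGauacacuguacgaga
hsa-miR-27a-3p: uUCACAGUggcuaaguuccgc
hsa-miR-27b-3p: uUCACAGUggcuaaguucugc
The 21 bases of miR-128-3p are the same in both hairpins, so its reads do not show which hairpin they came from. The 5p arms have the same seed and differ at 6 of 23 positions, C1G, U9A, A10U, G11A, C18A and U19C, counted from the 5′ end with the base of miR-128-1-5p first. They are the only mature products that separate the hairpins. miR-27a-3p and miR-27b-3p are shown because their seed is that of miR-128-3p moved by 1 base. From base 2 on, the miR-27 sequences share a run of 8 bases with the start of miR-128-3p.

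The hairpins follow with both arms in capitals, 5p first, on the plus strand of GRCh38.p14.
MIR128-1 (chr2:135665397-135665478): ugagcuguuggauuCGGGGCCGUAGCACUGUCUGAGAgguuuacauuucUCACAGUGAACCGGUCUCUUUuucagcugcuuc
MIR128-2 (chr3:35744476-35744559): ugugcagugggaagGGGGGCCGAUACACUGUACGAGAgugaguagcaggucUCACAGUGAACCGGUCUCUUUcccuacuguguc
MIR128-1 lies in an intron of R3HDM1, and MIR128-2 lies in an intron of ARPP21, a gene of neurons and developing lymphocytes. In the GENCODE annotation, 6 of 20 R3HDM1 transcripts and 5 of 35 ARPP21 transcripts spanned the hairpin, and 0 had an exon over it.

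hsa-miR-128-3p was higher in every RA library than in every control library. Its level was 1178, 370 and 619 CPM in RA replicates 1, 2 and 3, against 264, 257 and 269 CPM in control replicates 1, 2 and 3 (CPM, read counts scaled by the authors to an effective library size). The groups did not overlap, and the lowest RA library lay 1.38-fold above the highest control. Over all 449 miRNAs, 8.69% had every RA library above every control library (39 miRNAs), and miR-128-3p was among them by the way it was chosen.

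The mean was 722 ± 414 CPM in RA cells and 263 ± 5.67 CPM in control cells (SD, n = 3 each). On the log2(CPM + 1) scale, the difference of RA minus control was 1.29 with a standard error of 0.34, which is 2.45-fold. The ratio of the mean CPM was 2.74-fold, because RA replicate 1 weighs more in an arithmetic mean. In bulk RNA, a change in the number of cells that hold a miRNA and a change in its amount per cell cannot be told apart.

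The RA libraries differed from each other far more than the controls did. Against the control mean, miR-128-3p was 4.47-fold higher in RA replicate 1, 1.40-fold in RA replicate 2 and 2.35-fold in RA replicate 3. The highest RA library was 3.19-fold above the lowest, and the highest control was 1.04-fold above the lowest control. Without RA replicate 1 the log2 difference was 0.86 in place of 1.29, and without RA replicate 2 it was 1.69. These libraries thus set much of its size. Its direction could not turn in these runs, because the groups did not overlap.

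The depth behind these values was unequal. The RA libraries held 1158116, 176590 and 298412 miRNA reads, against 2190324, 4111404 and 3423545 in the controls, and the median was 11.5-fold higher in the controls. The values came in whole steps of 1 read in each library, which gave the reads. miR-128-3p rested on 1193, 71 and 213 reads in the RA libraries and on 501, 1106 and 837 reads in the controls. Its 95% exact Poisson interval was 1112 to 1247 CPM in RA replicate 1, 289 to 467 CPM in RA replicate 2 and 539 to 708 CPM in RA replicate 3, against 241 to 288, 243 to 273 and 251 to 288 CPM in the controls. These intervals cover counting error only. Those of the RA libraries did not overlap each other, whereas those of the 3 controls did. RA replicates 1, 3 and 2 were in this order from high to low in miR-128-3p and also in depth, and the part of depth in that order was not tested. Scaled to the total of miRNA reads in place of the effective library size, the CPM levels were 1030, 402 and 714 in the RA libraries and 229, 269 and 244 in the controls, with the same order among the RA libraries and no overlap.

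**Figure D1:**
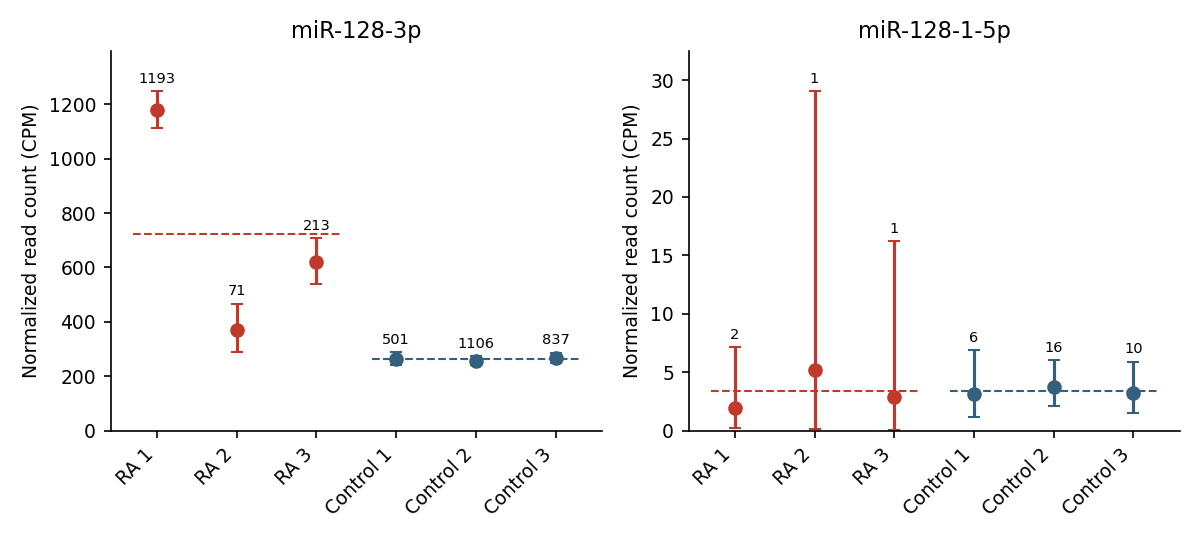
Level of miR-128-3p (left) and miR-128-1-5p (right) in each library, in CPM on linear axes, RA libraries left of controls, with 95% exact Poisson intervals for counting error, the number of reads above each point and the group means as dashed lines. The RA libraries of miR-128-3p sit at 370 to 1178 CPM, above controls at 257 to 269 CPM, while miR-128-1-5p rests on 1 or 2 reads in each RA library.

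By its mean of 493 CPM over the 6 libraries, miR-128-3p ranked 95 of 449 miRNAs. A total of 71 miRNAs, itself included, had a mean within 3 times of that level (164 to 1479 CPM), and they show how much libraries varied at this abundance. The SD of miR-128-3p on the log2(CPM + 1) scale was 0.836 among RA libraries, against 0.031 among controls. The RA value was the 7th highest of the 71, whose median was 0.37. The control value was the 4th lowest, with a median of 0.16. The RA SD was the larger in 59 of the 71 miRNAs, so that a wider RA group was common at this level.

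The 6 miRNAs with a wider RA spread included miR-451a, the miRNA of red blood cells, with an RA SD of 2.57, and miR-192-5p, which is abundant in gut and liver, with 1.73. The other SD values were 1.69 for miR-151a-5p, 0.93 for miR-194-5p and 0.86 for each of miR-365a-3p and miR-365b-3p. The last 2 had the same value in every library, so they are not separate measurements. In these 71 miRNAs the highest RA library was RA replicate 1 in 38, RA replicate 2 in 15 and RA replicate 3 in 18. The position of miR-128-3p, highest in RA replicate 1, was thus the most frequent one at its level. The SD of miR-128-3p among RA libraries was 0.52 without RA replicate 1 and 1.18 without RA replicate 3.

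**Figure D2:**
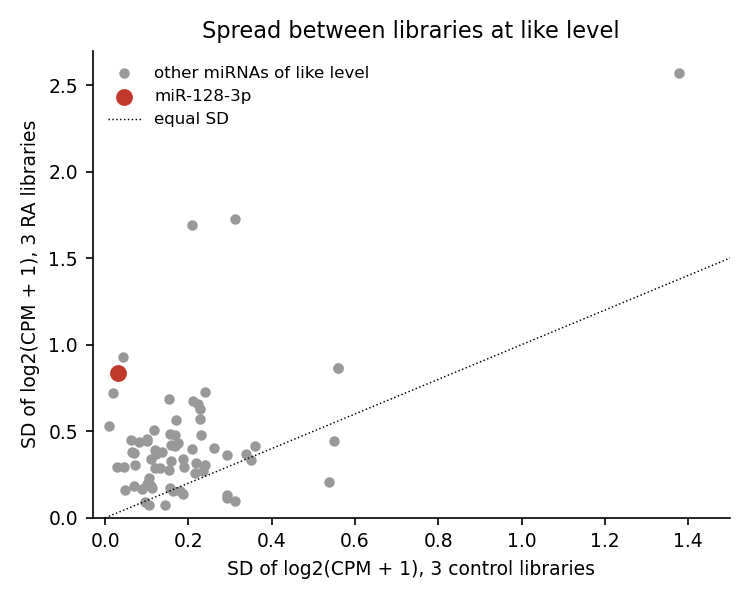
SD of log2(CPM + 1) among the 3 RA libraries (vertical) against that among the 3 controls (horizontal) for the 71 miRNAs with a mean of 164 to 1479 CPM, each point 1 miRNA and the dotted line marking equal SD. miR-128-3p, at 0.836 in RA and 0.031 in controls, lies near the left edge, and 59 of the 71 points lie above the line.

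The passenger arm hsa-miR-128-1-5p was scarce and did not share the difference of the guide strand in its point value. Its level was 1.97, 5.21 and 2.91 CPM in the RA libraries, against 3.16, 3.72 and 3.21 CPM in the controls. It rested on 2, 1 and 1 reads in the RA libraries and on 6, 16 and 10 reads in the controls, and the groups overlapped. All 3 RA values lay under the level of 3 reads in their library, which was 2.96, 15.6 and 8.72 CPM. Its mean was 3.36 ± 1.66 CPM in RA cells and 3.36 ± 0.313 CPM in control cells (SD, n = 3 each). The log2(CPM + 1) difference was -0.07 with a standard error of 0.66, and it turned positive under some scalings of the libraries. The 95% exact Poisson interval was 0.239 to 7.13 CPM in RA replicate 1 and wider in the other RA libraries. In each RA library it held every control value. Whether a change of the size seen for miR-128-3p could be detected at this depth was not tested.

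The balance between the arms was read from the reads of each library, so it does not depend on scaling. The 5p arm took 0.167% of the miR-128 reads in RA replicate 1 (95% exact Clopper-Pearson interval 0.0203 to 0.603), 1.39% in RA replicate 2 (0.0352 to 7.50) and 0.467% in RA replicate 3 (0.0118 to 2.58). In the controls it took 1.18% (0.436 to 2.56), 1.43% (0.817 to 2.31) and 1.18% (0.568 to 2.16). RA replicate 2 lay among the controls, and the other RA libraries below them. The interval of RA replicate 1 lay wholly below that of control replicate 2 and overlapped those of the other controls.

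Summed over libraries, 4 of 1481 miR-128 reads were 5p in RA cells, 0.270% (exact interval 0.0736 to 0.690), against 32 of 2476 in control cells, 1.29% (0.886 to 1.82). These sums are not a comparison over replicates, since RA replicate 1 gave 1193 of the 1477 RA reads of the 3p arm. miR-128-3p had 596.5, 71 and 213 reads for each 5p read in the RA libraries, against 83.5, 69.1 and 83.7 in the controls. The mean log2 of this ratio was 1.41 higher in RA cells. It was 0.65 higher without RA replicate 1 and 2.18 higher without RA replicate 2, and the RA and control libraries overlapped.

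**Figure D3:**
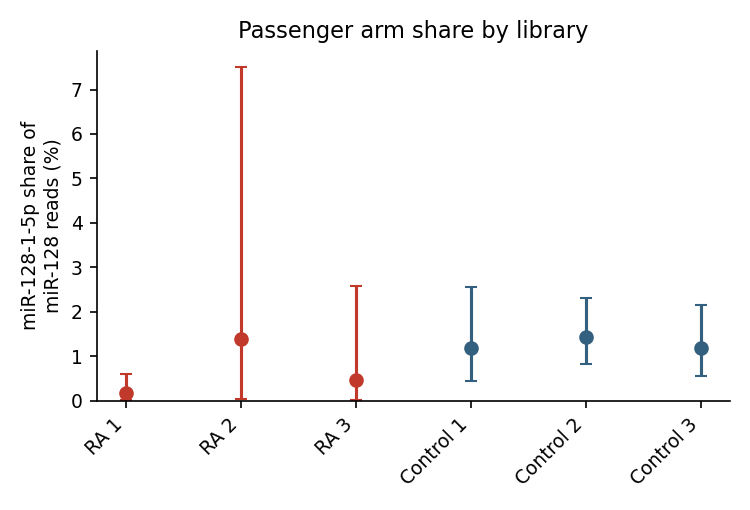
Share of miR-128 reads that were the 5p arm of MIR128-1, in percent, for each library, RA left of control, with exact 95% Clopper-Pearson intervals. The RA intervals are wide, since they rest on 1 or 2 reads of 5p, and RA replicate 2 at 1.39% lies among the controls at 1.18% to 1.43%.

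Both arms were listed for 134 hairpins or groups of hairpins with a shared name. The rarer arm took a median share of 3.94% of the reads of both arms summed over all libraries. In miR-128 it took 0.910%, with 40 pairs smaller. These sums weigh the deeper control libraries more. The log2 difference of RA minus control was larger by 1.36 in the 3p than in the 5p arm of miR-128, and 11 pairs had a larger gap between their main and minor arm (median 0.13). Most of this gap is the difference for which miR-128-3p was chosen, so its rank is a description and no support. The 5p arm of miR-128 also rests on 4 RA reads, and the minor arm averaged at least 10 CPM in 74 of the 134 pairs. let-7d, the miRNA nearest to miR-128-3p in its pattern below, had both arms well covered, with log2 differences of 0.83 for its 5p and 0.87 for its 3p arm.

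The miRNAs whose levels followed miR-128-3p most closely over the 6 libraries came from abundant families. Among 259 others averaging 10 CPM or more, the highest Pearson correlations of log2(CPM + 1) were 0.992 for let-7d-5p, 0.986 for miR-92a-3p, 0.984 for miR-423-3p, 0.976 for miR-26b-5p and 0.976 for let-7b-5p. Spearman's coefficient was 1 for let-7d-5p, miR-92a-3p and let-7b-5p, and 0.943 for the others. The median correlation was -0.08, and 16 miRNAs reached at least 0.9. The points share their libraries, depth and scaling, and the miRNAs are the top of a ranking, so the values are descriptions with no test.

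let-7d-5p, of the let-7 family that holds back self-renewal, stood at 9974, 4417 and 6601 CPM in the RA libraries and 3563, 3522 and 4103 CPM in the controls. miR-92a-3p, of the miR-17-92 cluster, stood at 2566, 1406 and 1945 CPM in the RA libraries and 1351, 1310 and 1400 CPM in the controls. In both, RA replicate 1 was highest, RA replicate 2 was the lowest RA library, and the groups did not overlap. Without RA replicate 1 the correlations of the 5 with miR-128-3p were 0.946 to 0.975. The order RA replicate 1, RA replicate 3, RA replicate 2 and then every control held in 13 of the 260 miRNAs with at least 10 CPM (5%), miR-128-3p included.

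The 5 miRNAs had smaller log2 differences than the 1.29 of miR-128-3p, at 0.83 for let-7d-5p and 0.47 to 0.50 for the rest. None of the 5 passed the limma test at an adjusted p of 0.05, with 0.075 for let-7d-5p and 0.20 to 0.24 for the others. For let-7d-5p, edgeR on the recovered reads gave an adjusted p of 0.024, and for the others 0.13 to 0.14. The 5 were picked by their correlation with miR-128-3p over these same libraries, so these p-values are not independent support.

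**Figure D4:**
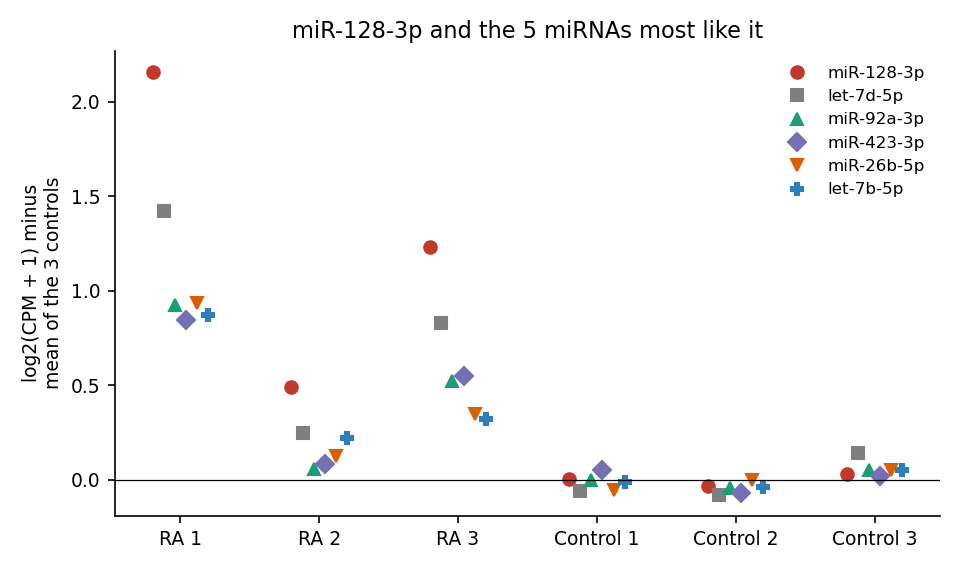
log2(CPM + 1) of miR-128-3p and of the 5 miRNAs most correlated with it, as the difference from each miRNA's control mean, in RA libraries (left) and controls (right). Each symbol is 1 miRNA, and all 6 are highest in RA replicate 1 and lowest among RA libraries in RA replicate 2, with miR-128-3p the farthest from 0 in every RA library.

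The seed neighbours miR-27a-3p and miR-27b-3p, regulators of lipid metabolism and angiogenesis, were much more abundant than miR-128-3p. miR-27a-3p stood at 6501, 7230 and 8099 CPM in the RA libraries, against 5596, 4707 and 6481 CPM in the controls, a log2 difference of 0.39 (SE 0.19, limma adjusted p = 0.27). miR-27b-3p stood at 35846, 37787 and 35318 CPM in the RA libraries, against 41866, 33335 and 44431 CPM in the controls, a log2 difference of -0.12 (SE 0.20, limma adjusted p = 0.75) that turned positive under 3 other scalings. Neither miRNA was called, and the groups overlapped in miR-27b-3p. By limma, 0 of the 2 had an unadjusted p under 0.05 and edgeR called 0, while DESeq2 on the recovered reads called miR-27a-3p higher (adjusted p = 0.046). Over all 449 miRNAs limma called 2.9% higher and 4.68% lower, which is 13 and 21 miRNAs, and with libraries scaled to their total it called 17 and 11.

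miR-128-3p stayed a minor part of this seed pool in every library. It had 27.8, 8.22 and 14.3 reads per 1000 reads of miR-27a-3p and miR-27b-3p together in the RA libraries, against 5.55, 6.77 and 5.28 in the controls. Every RA library was above every control, as were 8.69% of all 449 miRNAs in CPM. The mean was 16.8 ± 10.0 in RA cells and 5.87 ± 0.792 in control cells (SD, n = 3 each), a log2 difference of 1.35. The ratio needs no scaling because both counts come from the same library. It rests on the miRNA chosen for its higher level after RA, so it restates that difference and is no added support.

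BMI1 holds a full seed match to miR-128-3p. The reverse complement of the seed was searched on the transcript strand of the longest annotated 3′ untranslated region of each gene (GENCODE, GRCh38) as CACTGTGA, CACTGTG and ACTGTGA. These motifs overlap, and the last is also the seed match of miR-27. In the 1942 bases of BMI1, CACTGTGA occurred at position 481, shown with the match in capitals.
BMI1 site (chr10:22330023-22330030, plus strand): ucuauguagccauguCACUGUGAauaacga
CACTGTGA was present in 5.75% of windows of that length, taken from 6039 genes. BAX, a promoter of apoptosis, held CACTGTGA in its 701 bases (2.13% of windows of that length). BCL2, an inhibitor of apoptosis, held none of the 3 motifs in 5279 bases. A match describes letters and not a bound site, and no messenger RNA was measured here.

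Other miRNAs reported to target BMI1 were set beside miR-128-3p. Of 10 miRNAs listed, 8 had a row, and limma called 0 higher and 0 lower. Their median log2 difference was -0.23, against 0.00 over all 449 miRNAs, with 1 above 0 and 7 below. Under 3 other scalings 2 were above 0 and 6 below, by limma-voom 3 and 5, and by DESeq2 on the recovered reads 4 and 4 with a median of 0.0019. The direction of the list was thus not the same in every fit. By limma, 3 of the 8 had an unadjusted p under 0.05, all with lower means in RA cells, against 21.8% of all 449 miRNAs in either direction. edgeR on the recovered reads called 1 of the 8, miR-203a-3p, higher, against 14.7% of all miRNAs in either direction.

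Those 3 of the 8 had every RA library below every control, against 17.1% of all 449 miRNAs. They were picked by their p in these same libraries, so the lack of overlap is no added support. miR-218-5p, a miRNA of motor neurons, stood at 3066, 3266 and 3144 CPM in the RA libraries and 4327, 4352 and 4591 CPM in the controls (log2 difference -0.49, limma adjusted p = 0.10). The related miR-15a-5p and miR-16-5p restrain the cell cycle. miR-16-5p stood at 1398, 1766 and 1768 CPM in the RA libraries and 2510, 2861 and 2153 CPM in the controls (-0.61, limma adjusted p = 0.075). miR-15a-5p stood at 36.5, 57.3 and 34.9 CPM in the RA libraries and 68.4, 90.1 and 88.3 CPM in the controls (-0.95, limma adjusted p = 0.11). Leaving out RA replicate 2 brought the adjusted p of miR-15a-5p and of miR-218-5p to 0.044, and leaving out RA replicate 3 brought that of miR-218-5p to 0.049.

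The remaining members varied by library or hardly at all. miR-194-5p, the partner of miR-192-5p in their clusters, stood at 410, 115 and 177 CPM in the RA libraries and 253, 239 and 249 CPM in the controls, with the RA order of miR-128-3p but an overlap between groups. miR-203a-3p, a miRNA of skin epithelium, stood at 64.2, 0 and 0 CPM in the RA libraries and 1.05, 0.233 and 1.61 CPM in the controls, so that its edgeR call (adjusted p = 0.0076) came from RA replicate 1 alone. The epithelial miR-200b-3p and miR-200c-3p and the sensory miR-183-5p had log2 differences of -0.18, -0.07 and -0.10 with overlapping groups.

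The expression of miR-128-3p is highest in brain, and the labels speak of brain tissue, so brain-enriched miRNAs were counted beside it. Of 21 names listed, 9 had a row, and miR-124-3p, the defining miRNA of neurons, had none. miR-9-5p, of neural progenitors, stood at 3895, 6022 and 4868 CPM in the RA libraries and 5278, 4880 and 5025 CPM in the controls, with overlap. miR-219a-5p, of oligodendrocytes, had 1, 0 and 0 reads in the RA libraries (0.987, 0 and 0 CPM). It had 8, 15 and 11 reads in the controls (4.21, 3.49 and 3.53 CPM). Since 1 read stood for 5.21 CPM in RA replicate 2 and 2.91 CPM in RA replicate 3, its 0 reads there say little. Neither miR-9-5p nor miR-219a-5p had its RA libraries above its controls, and miR-124-3p could not be compared.

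Limma called 0 of the 9 higher and 0 lower. Their median log2 difference was -0.42, with 3 above 0 and 6 below. Under 3 other scalings 4 were above 0 and 5 below, and by DESeq2 on the recovered reads 5 were above 0 and 4 below with a median of 0.14, so that the direction of the list turned. By limma 3 of the 9 had an unadjusted p under 0.05, all lower in mean, against 21.8% of all miRNAs, and edgeR called 0. The most abundant, miR-7-5p, of neurons and endocrine cells, stood at 17776, 12914 and 11650 CPM in the RA libraries and 22063, 19343 and 17518 CPM in the controls (log2 difference -0.49, limma adjusted p = 0.20, or 0.039 without RA replicate 1). The log2 difference of miR-9-3p was -0.42. The summed level of the 9 was 25117, 22441 and 19993 CPM in the RA libraries and 32070, 28975 and 27567 CPM in the controls. Every RA library was below every control in this sum, as in 17.1% of all 449 single miRNAs. Most of the sum came from miR-7-5p, whose own groups overlapped. The part of this list in the value of miR-128-3p was not tested.

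**Figure D5:**
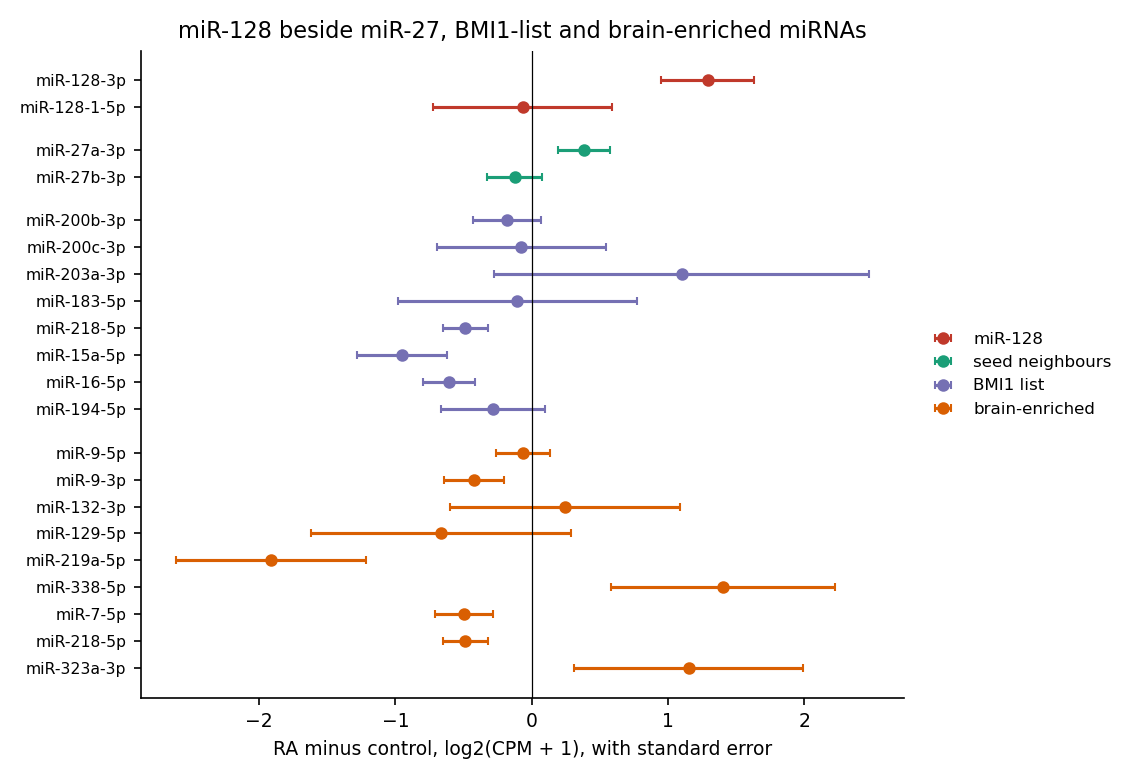
RA minus control on the log2(CPM + 1) scale, with the standard error of limma, for both miR-128 arms and the measured members of 3 lists (seed neighbours, miRNAs reported to target BMI1, brain-enriched miRNAs). miR-128-3p lies at 1.29, while 7 of 8 members of the BMI1 list and 6 of 9 of the brain list lie below 0 in this fit, against 4 of 8 and 4 of 9 by DESeq2.

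Some markers of other tissues were far above the controls in single RA libraries, and not always in RA replicate 1, the library with the most miR-128-3p. miR-122-5p, the miRNA of hepatocytes, stood at 9493, 5.21 and 0 CPM in the RA libraries and 32.1, 9.31 and 1.61 CPM in the controls. The 2 endothelial markers miR-126-3p and miR-126-5p summed to 412, 0 and 233 CPM in the RA libraries and 3.16, 7.22 and 8.99 CPM in the controls. By limma none of these 3 was called, while edgeR on the recovered reads called all 3 higher, against 14.7% of all 449 miRNAs called by edgeR in either direction. Of 3 muscle miRNAs, 2 had a row, and limma and edgeR called 0 of them. Their log2 differences were 0.32 for miR-1-3p and -0.20 for miR-206.

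Of the 8 blood cell miRNAs, all measured, limma called 1 higher, miR-451a, and edgeR called 3 higher, miR-451a, miR-150-5p and miR-223-3p. Over all 449 miRNAs, limma called 2.9% higher and edgeR called 14.7% in either direction. The log2 difference was above 0 in 5 of the 8 and below 0 in 3, miR-486-5p (-0.26), miR-142-3p (-0.49) and miR-142-5p (-0.11). miR-451a stood at 824, 26.0 and 355 CPM in the RA libraries and 5.26, 33.8 and 6.10 CPM in the controls. RA replicate 3 was highest in miR-223-3p, of myeloid cells, at 3.95, 20.8 and 145 CPM in the RA libraries and 0.526, 3.72 and 0.321 CPM in the controls, and in miR-150-5p, of lymphocytes, at 0, 0 and 212 CPM in the RA libraries and 1.05, 0.931 and 0.642 CPM in the controls. Among RA libraries, RA replicate 1 was the highest in 3 of the 8.

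The whole blood list summed to 2684, 1683 and 2356 CPM in the RA libraries and 2021, 1936 and 2104 CPM in the controls, so that the sums overlapped. RA replicates 1 and 3, with more miR-128-3p than RA replicate 2, also held more of the endothelial and blood lists, and RA replicate 2 had no miR-126 read while its miR-128-3p was above every control. The part of these markers in the level of miR-128-3p was not tested. The 5 mesenchymal miRNAs typical of MDA-MB-231 summed to 71711, 47612 and 48471 CPM in the RA libraries and 62631, 64830 and 56408 CPM in the controls. Of 7 epithelial miRNAs, 5 had a row, and they summed to 282, 188 and 183 CPM in the RA libraries and 278, 195 and 212 CPM in the controls, far below the mesenchymal list in every library.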

How the data were processed

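Small RNA libraries of BCSCs treated with RA (n = 3) or kept as control (n = 3) were analysed. The authors deposited a normalized signal, CPM scaled by an effective library size, for each mature miRNA in each library. They also deposited a log2 value for each group, copied here as the authors' value only. Columns of the authors' own fold changes and p-values were not used. Genome build hg19 is named in the submitters' processing notes. The tools for alignment and counting were not given in the sources used here. Of 2694 values, 100% were whole multiples of the value of 1 read within 0.01 reads, and reads were recovered by division.

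RA was compared with control by limma 3.58.1 (trend option, R 4.3.3) on log2(CPM + 1), two-sided, over all 449 miRNAs with no filter and Benjamini-Hochberg adjustment. Fold changes of low miRNAs are understated on this scale. edgeR 4.0.16 (quasi-likelihood, 66 miRNAs called) and DESeq2 1.42.0 were run on the recovered reads. The limma and edgeR fits were tested on simulated reads, on which limma made more false calls among low miRNAs than its threshold allows. The simulated reads had the same dispersion in both groups, so they do not show how the fits behave with the wider RA spread. Alternatives were other scalings, filters, pseudocounts, a replicate block and leaving out each library. The members, lists and tests were chosen with earlier results of these data known. miRNAs named were the miR-128 rows, every measured seed neighbour and BMI1-list member, brain-list members with a mean of at least 10 CPM or defining, the 5 most correlated with miR-128-3p, and its 4 nearest neighbours in level. Those of the other marker lists, of the spread ranking and let-7d-3p as the partner arm were named after their values were seen. Sequences came from RefSeq and GENCODE (GRCh38), while the deposited values carry no coordinates.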

Additional observations from a re-analysis of the deposited data

How the results depend on the processing

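The log2 difference of miR-128-3p was 1.28 to 1.64 over 12 other settings and 0.86 to 1.69 when each library was left out. Its sign is no support, since the miRNA was chosen for it. Leaving out a library could not turn it either, because the groups did not overlap. The log2 difference of miR-128-1-5p was -0.27 to 0.07 and -0.35 to 0.18 in the same runs, with no value under the filter at a mean of 10 CPM. No setting was run for miR-128-2-5p, which had no row. The arm ratio was 0.65 to 2.18 higher in RA cells when each library was left out and 0.99 higher with 0.5 reads added to each arm. The RA spread of miR-128-3p was 0.52 to 1.18 when each library was left out, 0.68 scaled to the library total and 0.83 with a pseudocount of 5.

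Limma called 34 of 449 miRNAs (13 higher, 21 lower), edgeR 66 (38 and 28), DESeq2 66 (45 and 21) and limma-voom 77 (47 and 30). The split was 17 higher and 11 lower with library totals, 17 and 12 with upper-quartile factors, and 17 and 11 with DESeq2 size factors, which raised the median log2 difference of all miRNAs by 0.13, 0.12 and 0.17. Leaving out each library gave 10 to 49 calls, with 10 without control replicate 1, 19 without control replicate 2, 16 without control replicate 3 and 17 without RA replicate 3. Of the 18 members of the 3 lists, 0 were called by limma, 1 by edgeR (miR-203a-3p), 1 by DESeq2 (miR-27a-3p), 2 by limma-voom (miR-323a-3p and miR-338-5p), and 0 to 2 when each library was left out. The cause of these differences was not tested.

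The replicate numbers are shared between the groups, but same-numbered libraries did not deviate together (correlations of 0.12, -0.19 and 0.13 over 260 miRNAs), so they were not taken as pairs. A replicate block gave 55 calls over all miRNAs and 1 in the lists (miR-16-5p, adjusted p = 0.046), called let-7d-5p (0.0016), let-7d-3p (0.0064) and miR-148a-5p (0.0038), which limma without it did not, and left the log2 difference of miR-128-3p at 1.29. Depth limits the 5p arm most: 1 read stood for 5.21 CPM in RA replicate 2, against 0.233 CPM in control replicate 2.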

Other observations

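Of the 4 miRNAs nearest to miR-128-3p in mean level, 1 shared its library pattern, let-7d-3p. miR-195-5p, of the miR-15 family that restrains the cell cycle, stood at 281 ± 37.3 CPM in RA cells and 636 ± 43.2 CPM in control cells (SD, n = 3 each), and was called lower (log2 difference -1.18, SE 0.20, limma adjusted p = 0.0050). Without control replicate 1 its adjusted p was 0.060. miR-148a-5p stood at 364 ± 120 CPM in RA cells and 655 ± 4.14 CPM in control cells (log2 difference -0.91, limma adjusted p = 0.053). let-7d-3p, the passenger arm of the miRNA most like miR-128-3p, stood at 654 ± 237 CPM in RA cells and 342 ± 41.6 CPM in control cells (log2 difference 0.87, limma adjusted p = 0.075, edgeR adjusted p = 0.033). Its level was 879, 406 and 678 CPM in the RA libraries and 309, 389 and 328 CPM in the controls, with the RA order of miR-128-3p and no overlap. miR-149-5p stood at 477 ± 123 CPM in RA cells and 428 ± 79.4 CPM in control cells (limma adjusted p = 0.77).

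The authors' own log2 group values for miR-128-3p were 9.51 in RA cells and 8.04 in control cells, a difference of 1.47, close to the log2 ratio of the mean CPM (1.46) and above the difference of the mean log2 values (1.29). For miR-128-1-5p they were 1.50 in RA cells and 1.79 in control cells, a difference of -0.28.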
